A study of Mus musculus with 9 samples.

Results

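Krüppel-like factors are zinc finger transcription factors that bind GC-rich and CACCC-containing DNA, and several of them act on the early program by which pre-adipocytes become fat cells. Klf4, Klf5, Klf6, Klf9, Klf13 and Klf15 are known to promote that program, whereas Klf2, Klf3 and Klf7 are known to hold it back, and Klf10 was first described as an early gene of the TGF-beta response. The members described here are the 10 genes Klf2, Klf3, Klf4, Klf5, Klf6, Klf7, Klf9, Klf10, Klf13 and Klf15, of 22180 genes with a probe set of their own. Their probe sets were found by gene symbol, but the 10 genes were chosen with earlier results of these data known. The brightest probe set of each gene (highest mean over 9 arrays) was used. Of the 10 genes 9 passed the filter on low values, with 8 arrays (Klf7) or 9 arrays (the other genes) at or above the filter level. Klf15 did not pass.

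The cells were 3T3-L1 pre-adipocytes, a fibroblast-like mouse line used as a model of fat cell formation, grown to confluence in 12-well plates and growth-arrested for 48 h. One group had received siRNA against the surface glycoprotein CD24 (mouse gene Cd24a) and then IBMX/Dex for 6 h. Another had received a scrambled control siRNA and the same IBMX/Dex, and the last was treated with vehicle. IBMX, at 0.5 mM, inhibits phosphodiesterases and so raises cAMP, and dexamethasone (Dex), at 1 µM, is a synthetic glucocorticoid. The siRNA amount was 100 nmol, per the labels. Whether vehicle cells were transfected is not stated there, so IBMX/Dex and transfection cannot be told apart in the comparisons with vehicle. Each group held 3 arrays. The labels do not say that replicates were separate cultures, so p-values reflect only how these samples spread, which may be technical.

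Array medians lay between 6.47 and 6.56 log2 units. Precision is limited by the few arrays: a difference typically carried a 95% interval of 0.34 log2 units to each side (median over genes tested). Cd24a stood at 10.15, 10.16 and 11.72 in replicates 1, 2 and 3 with CD24 siRNA and IBMX/Dex, against 11.19, 11.73 and 11.81 with scrambled siRNA and IBMX/Dex and 8.88, 9.92 and 9.49 with vehicle. For the array labelled CD24 siRNA replicate 3, the difference from the same-numbered scrambled array was only -0.10, against -1.04 and -1.57 for the others, and the members' differences that use it are also given without it. A second Cd24a probe set had the same exception, at 7.22, 6.68 and 9.08 with CD24 siRNA and IBMX/Dex, 9.28, 8.72 and 9.25 with scrambled siRNA and IBMX/Dex and 6.78, 6.42 and 6.69 with vehicle. All 7 markers listed for pre-adipocytes were above the filter level. Their mean level was 11.15 to 11.29 with CD24 siRNA and IBMX/Dex and 11.15 to 11.30 with scrambled siRNA and IBMX/Dex. With vehicle it was 11.64 to 11.82. Of the 7 markers only the growth factor receptor genes Pdgfra and Pdgfrb were called, lower in both comparisons with vehicle (beside 3.6% and 3.73% of all genes tested). With same-numbered arrays paired, 4 fell with scrambled siRNA and 3 with CD24 siRNA (beside 11.4% and 12.1%), and none rose. Thy1 was at 11.09, 11.17 and 11.41 with scrambled siRNA and IBMX/Dex, against 10.79, 10.67 and 11.51 with vehicle. Of the 5 markers of mature adipocytes 1 was above the filter, as were 3 of 5 for macrophages, 1 of 5 for endothelium, 2 of 5 for epithelium and 5 of 5 for skeletal muscle (of which the desmin gene Des fell in both comparisons with vehicle), and the ranges of these mean levels overlapped between the IBMX/Dex groups and vehicle. The part of the pre-adipocyte marker shift in the results below was not tested, and in bulk RNA fewer cells of a type and less RNA per cell cannot be told apart.

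The first question was how the family answered IBMX/Dex after the scrambled siRNA. Klf5 rose and Klf3, Klf6 and Klf7 fell in limma with Benjamini-Hochberg adjustment over all 12630 genes tested, so that 4 of 9 tested members passed. Among all genes tested, 6.94% passed (3.33% higher, 3.6% lower). The members were chosen with earlier results of these data known, and none of the 5 tested other Krüppel-like factor genes passed. The same 4 members were those whose groups did not overlap, beside 25.2% of all genes tested. The median absolute difference was 0.52 log2 units over the 9 members and 0.19 over all genes tested, while the signed medians were -0.01 and 0.02.

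Klf5, an activator that acts on the Pparg gene together with C/EBP factors, was the member that rose. Its log2 level was 10.45, 10.59 and 10.63 in replicates 1, 2 and 3 with scrambled siRNA and IBMX/Dex, against 9.67, 8.99 and 9.55 with vehicle. The groups did not overlap, and the vehicle array of replicate 2 was the lowest. The difference was 1.15 ± 0.17 log2 units (SE), or 2.23-fold, with limma adjusted p = 0.00628. The same-numbered differences were 0.78, 1.61 and 1.08.

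Klf6, reported to repress the pre-adipocyte gene Dlk1, had the smallest p of the 9 tested members. It stood at 10.44, 10.15 and 10.31 with scrambled siRNA and IBMX/Dex, against 11.48, 11.26 and 11.53 with vehicle. All IBMX/Dex arrays were lower than all vehicle arrays by at least 0.82 log2 units. Klf6 fell by 1.12 on the log2 scale (SE 0.12), which is 2.18-fold lower, with limma adjusted p = 0.00135 and rank 49 by p among all genes tested. The same-numbered differences were -1.04, -1.11 and -1.22.

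Klf7, known to inhibit adipocyte differentiation, fell most. Its levels were 6.43, 7.11 and 7.01 with scrambled siRNA and IBMX/Dex, against 7.98, 7.96 and 8.45 with vehicle. Replicate 1 with scrambled siRNA lay below the filter level of 6.51, and the groups did not overlap. The difference was -1.28 ± 0.20 log2 units (SE), 2.43-fold lower, with limma adjusted p = 0.00699. A second, dim Klf7 probe set stood between 4.51 and 5.06 on all arrays, below the filter level, and its difference was -0.15.

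Klf3, a repressor that recruits the corepressor CtBP and is known to hold back adipogenesis, fell less. It stood at 9.58, 9.48 and 9.30 with scrambled siRNA and IBMX/Dex, against 10.06, 9.93 and 10.02 with vehicle. The groups did not overlap, and the same-numbered differences were -0.48, -0.45 and -0.72. Klf3 was 1.47-fold lower (log2 difference -0.55 ± 0.11 SE, limma adjusted p = 0.0224). The call was lost without scrambled replicate 2 (adjusted p = 0.0610) or 3 (adjusted p = 0.0933), without vehicle replicate 1 (adjusted p = 0.0524) or 3 (adjusted p = 0.0646), and in a fit of only these groups (adjusted p = 0.0625).

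**Figure D1:**
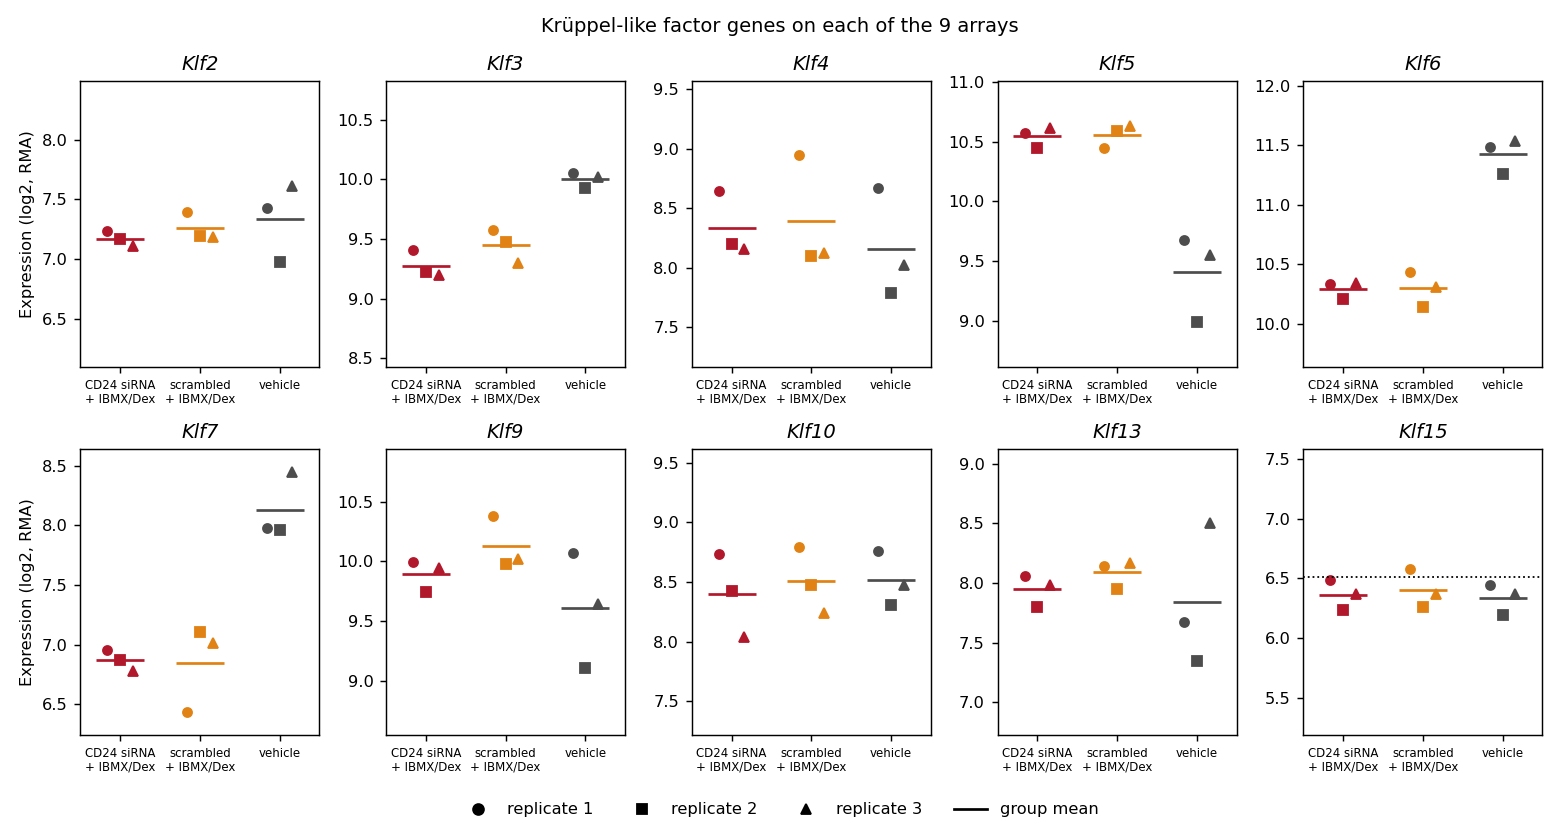
Log2 expression (vertical axes, all spanning the same range) of the 10 Krüppel-like factor genes in each group, with 1 symbol per array by replicate number and a line at the group mean. Klf5 is higher and Klf3, Klf6 and Klf7 are lower on all IBMX/Dex arrays than on all vehicle arrays, Klf4 and Klf10 follow the replicate number, and Klf15 lies around the filter level of 6.51 (dotted line).

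Klf9, a glucocorticoid-responsive gene in several tissues, passed only where same-numbered arrays were paired. It stood at 10.38, 9.98 and 10.02 with scrambled siRNA and IBMX/Dex, against 10.07, 9.11 and 9.64 with vehicle, so the groups overlapped. Each IBMX/Dex array was higher than the vehicle array of its own number, by 0.31, 0.87 and 0.38. The difference of 0.52 ± 0.23 log2 units (SE), 1.43-fold, did not pass in limma (adjusted p = 0.210), but did in the blocked fit (adjusted p = 0.0238). Leaving out vehicle replicate 2 gave 0.27, and leaving out vehicle replicate 1 gave 0.75. These 2 fits were unblocked and kept the same-numbered IBMX/Dex array, so they do not measure the spread of the paired differences. With the replicate block 5 of 9 tested members passed (Klf5 and Klf9 higher, Klf3, Klf6 and Klf7 lower), beside 23.3% of all genes tested (11.9% higher, 11.4% lower).

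The other members did not pass, with or without the block. Klf4, which acts on Cebpb in the first hours of 3T3-L1 differentiation, had log2 levels of 8.95, 8.10 and 8.12 with scrambled siRNA and IBMX/Dex, against 8.67, 7.79 and 8.03 with vehicle. Each of these differences was positive (0.28, 0.31 and 0.10), and their mean of 0.23 had a 95% interval of -0.42 to 0.88 (limma adjusted p = 0.699). With the block the interval was -0.02 to 0.48 (adjusted p = 0.174). Klf13, a GC-box binding factor also known from lymphocytes, was at 8.15, 7.95 and 8.17 with scrambled siRNA and IBMX/Dex, against 7.67, 7.34 and 8.51 with vehicle. Vehicle replicate 3 was the highest Klf13 array and vehicle replicate 2 the lowest, and the difference of 0.25 had an interval of -0.32 to 0.82. Klf2, a repressor of the Pparg promoter, was at 7.40, 7.19 and 7.19 with scrambled siRNA and IBMX/Dex, against 7.43, 6.98 and 7.61 with vehicle. Its difference was -0.08 (interval -0.44 to 0.28), with same-numbered differences of both signs. Klf10 was at 8.80, 8.48 and 8.24 with scrambled siRNA and IBMX/Dex, against 8.76, 8.30 and 8.47 with vehicle, a difference of -0.01 (interval -0.48 to 0.47). For Klf2, Klf10 and Klf13 the groups overlapped.

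Klf15, which drives the glucose transporter gene Slc2a4 in mature adipocytes and is a glucocorticoid target in other tissues, was dim in every group. It stood at 6.49, 6.24 and 6.37 with CD24 siRNA and IBMX/Dex, 6.58, 6.26 and 6.37 with scrambled siRNA and IBMX/Dex, and 6.44, 6.19 and 6.37 with vehicle. Only scrambled replicate 1 reached the filter level, and the 3 arrays of replicate 3 held exactly the same value. A value repeated on 3 or more arrays occurred for 4076 of the 22180 genes. In a fit without the filter the difference between scrambled siRNA with IBMX/Dex and vehicle was 0.07 (interval -0.20 to 0.34, limma adjusted p = 0.849), and a change of a transcript this dim would be compressed.

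**Figure D2:**
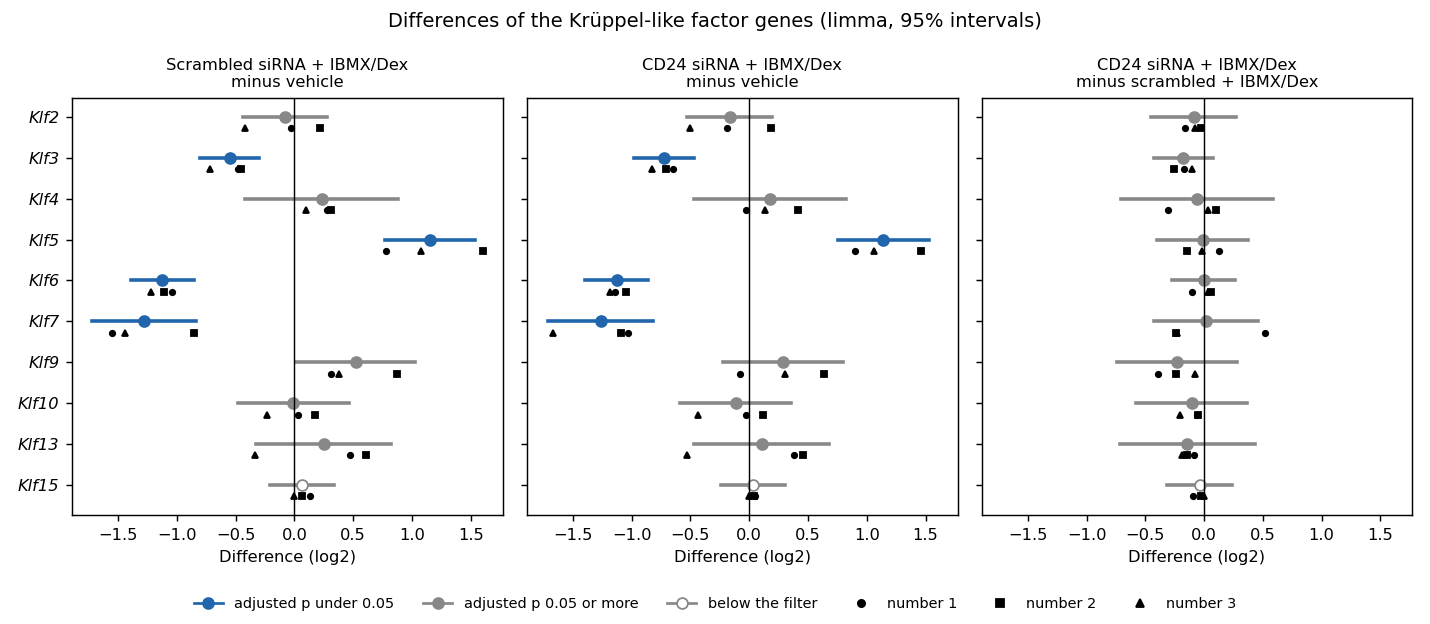
Differences in log2 units (horizontal axis) of the 10 genes in the 3 comparisons, with limma's estimate and 95% interval (blue where adjusted p is under 0.05) and the 3 same-numbered differences as small black symbols beneath. The blue intervals are those of Klf5 (higher) and of Klf3, Klf6 and Klf7 (lower) in both comparisons with vehicle, and no member passes in the right panel.

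Sequence before a transcript start is shown to set promoters of some members side by side. RefSeq (GRCm38.p6) gave a promoter window for 8 of the 10 members, namely Klf2, Klf3, Klf4, Klf6, Klf7, Klf9, Klf13 and Klf15. There was none for Klf5, the member that rose, or for Klf10. The 250 bases before the transcript start that the promoter table uses are printed for the members that fell and for Klf9. Klf9 passed only in the blocked fit after scrambled siRNA. For Klf7 and Klf15 that start lies inside the annotated gene, which runs from 64029448 to 64122345 on chromosome 1 for Klf7 (- strand) and from 90461043 to 90491803 on chromosome 6 for Klf15 (+ strand), so these windows follow the outermost start of the gene. They are chr5:64803271-64803520 on the + strand for Klf3, chr13:5861239-5861488 on the + strand for Klf6, chr1:64121390-64121639 on the - strand for Klf7 and chr19:23140976-23141225 on the + strand for Klf9. Capitals mark GC boxes (GGGCGG) and the short cAMP response element core (TGACG), each searched on both strands.
Klf3: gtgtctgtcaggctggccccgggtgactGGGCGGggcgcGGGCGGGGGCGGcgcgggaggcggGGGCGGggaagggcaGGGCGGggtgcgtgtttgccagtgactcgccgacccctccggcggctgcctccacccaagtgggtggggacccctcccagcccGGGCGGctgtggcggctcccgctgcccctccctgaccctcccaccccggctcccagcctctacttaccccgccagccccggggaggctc
Klf6: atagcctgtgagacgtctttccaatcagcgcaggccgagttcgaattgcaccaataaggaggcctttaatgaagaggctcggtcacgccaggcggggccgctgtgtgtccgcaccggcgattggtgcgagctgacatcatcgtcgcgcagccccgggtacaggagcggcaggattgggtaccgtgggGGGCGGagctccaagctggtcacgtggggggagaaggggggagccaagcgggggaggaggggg
Klf7: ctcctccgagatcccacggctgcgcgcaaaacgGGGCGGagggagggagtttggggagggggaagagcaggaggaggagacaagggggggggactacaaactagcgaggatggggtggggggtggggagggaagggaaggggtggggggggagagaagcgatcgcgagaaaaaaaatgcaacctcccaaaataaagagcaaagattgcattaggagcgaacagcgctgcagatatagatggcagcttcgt
Klf9: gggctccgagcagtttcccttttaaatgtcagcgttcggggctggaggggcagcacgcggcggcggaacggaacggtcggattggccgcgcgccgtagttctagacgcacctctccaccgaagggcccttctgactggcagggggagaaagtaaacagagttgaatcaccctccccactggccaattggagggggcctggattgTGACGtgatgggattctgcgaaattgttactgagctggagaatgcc
The core TGACG was found for 5 of the 8 members (Klf2, Klf4, Klf9, Klf13 and Klf15) and in 17.8% of 32851 promoter windows of the same length. The Klf3, Klf6 and Klf7 windows held none, and in the Klf9 window it began 46 bases before the start. The whole palindromic element TGACGTCA, which contains that core, was in no member's window and in 1.55% of all windows. The palindromic consensus glucocorticoid response element was in no member's window and in 0.009% of all, and its left arm AGAACA in no member's window and in 16.1% of all. GC boxes were in 7 of 8 members' windows, 6 of them before Klf3 alone and none before Klf9, and in 32.7% of all windows. CACCC, the motif that the family itself binds, was in 6 of 8 (5 matches for Klf3, none for Klf4 and Klf6) and in 52.0% of all. The members' windows were 59.2% to 78.4% G and C, beside a median of 52.4% over all windows. These matches describe letters in a short window and show no binding.

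The same response was then measured after CD24 siRNA, against the same vehicle arrays that served above, so these values are not a second, independent measurement of the vehicle level. Klf5 rose and Klf3, Klf6 and Klf7 fell, 4 of 9 tested members, beside 6.65% of all genes tested (2.92% higher, 3.73% lower). Again these 4 had groups that did not overlap, beside 25.8% of all genes tested, and they were the same 4, beside 34.4%, when CD24 siRNA replicate 3 was left out. With CD24 siRNA and IBMX/Dex, Klf5 was at 10.57, 10.45 and 10.62, with all 3 arrays above the vehicle arrays. It was 2.21-fold higher than with vehicle (log2 difference 1.14 ± 0.17 SE, limma adjusted p = 0.00687). Klf6 was at 10.34, 10.21 and 10.35, at least 0.91 log2 units under every vehicle array. It was 2.18-fold lower (-1.13 ± 0.12 SE, limma adjusted p = 0.00136).

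Klf7 was at 6.95, 6.87 and 6.78 with CD24 siRNA and IBMX/Dex, a narrower range than in the scrambled group. It was 2.40-fold lower than with vehicle (-1.26 ± 0.20 SE, limma adjusted p = 0.00800). Klf3 was at 9.41, 9.22 and 9.19, below every vehicle array. It was 1.66-fold lower (-0.73 ± 0.11 SE, limma adjusted p = 0.00785). Without the array labelled CD24 siRNA replicate 3 these differences were 1.11 for Klf5, -1.15 for Klf6, -1.22 for Klf7 and -0.69 for Klf3, and all of them passed (limma adjusted p = 0.0345, 0.00865, 0.0387 and 0.0368).

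Klf9 was at 9.99, 9.74 and 9.95 with CD24 siRNA and IBMX/Dex, and its same-numbered differences from vehicle were -0.08, 0.64 and 0.30. The mean of 0.29 (interval -0.22 to 0.80) did not pass (limma adjusted p = 0.513), nor did it in the blocked fit (adjusted p = 0.168). Leaving out vehicle replicate 2 gave 0.04, and leaving out replicate 1 of that group gave 0.52, again unblocked and with the same-numbered arrays kept. With the block 4 members passed, beside 22.4% of all genes tested (10.4% higher, 12.1% lower). Klf4 was at 8.64, 8.20 and 8.16, Klf10 at 8.73, 8.42 and 8.04, Klf13 at 8.06, 7.80 and 7.98 and Klf2 at 7.24, 7.16 and 7.11. None of these passed. Their differences from vehicle were 0.17 for Klf4, -0.11 for Klf10, 0.11 for Klf13 and -0.17 for Klf2, each with an interval that holds 0 and with overlapping groups. Without the array labelled CD24 siRNA replicate 3 they were 0.26, 0.07, 0.09 and -0.14, and Klf9 differed by 0.26. With the block and without that array they were 0.16, -0.01, 0.28 and -0.09, and Klf9 differed by 0.24. None of these passed.

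Whether the CD24 siRNA changed the response was tested directly, by the difference between CD24 siRNA and scrambled siRNA, both with IBMX/Dex. In limma 0 of 9 tested members and 0% of the 12630 genes passed, also with the replicate block, and this does not show that the groups were alike. Cd24a, the target of the siRNA, did not pass either. Its difference was -0.90 log2 units (95% interval -1.87 to 0.06, and -1.55 to -0.25 with the block). After CD24 siRNA its mean was still 1.24 log2 units above vehicle, with same-numbered differences of 1.27, 0.24 and 2.23. Leaving out CD24 siRNA replicate 3 moved the Cd24a difference to 0.72 from vehicle and to -1.42 from scrambled siRNA. Still no gene passed against scrambled siRNA. The comparison did not call the target itself, so 0 of 9 does not measure the effect of losing CD24. At an unadjusted p under 0.05 there were 30 genes (219 with the block), none of them a member. All members' groups overlapped, whereas the groups did not overlap for 2.41% of all genes tested (8.98%, and again no member, when CD24 siRNA replicate 3 was left out). The members that had moved against vehicle were close: the difference was -0.01 for Klf5 (95% interval -0.40 to 0.37), 0.00 for Klf6 (-0.27 to 0.27), 0.02 for Klf7 (-0.43 to 0.46) and -0.18 for Klf3 (-0.43 to 0.08). For Klf7 the same-numbered differences were 0.52, -0.24 and -0.23, and the mean was -0.19 without scrambled replicate 1. In 5 of 9 tested members, Klf2, Klf3, Klf9, Klf10 and Klf13, each CD24 siRNA array was lower than the scrambled array of its number, as in 15.7% of all genes tested. The differences were -0.17, -0.25 and -0.10 for Klf3 and -0.39, -0.24 and -0.07 for Klf9, and those of Klf2, Klf10 and Klf13 lay between -0.20 and -0.03. The unadjusted limma p was 0.150 for Klf3 and 0.329 for Klf9 without the block, and 0.0960 and 0.124 with it. Without the block the widest intervals were those of Klf4 (-0.70 to 0.59), Klf13 (-0.71 to 0.43) and Klf9 (-0.74 to 0.28). With the block they were narrower, at -0.31 to 0.20, -0.56 to 0.27 and -0.54 to 0.08, and that of Klf7 was -0.36 to 0.40. For Klf2 and Klf10 the difference was -0.09 (-0.45 to 0.27) and -0.11 (-0.58 to 0.37). Without the array labelled CD24 siRNA replicate 3 no member passed either, and the differences were -0.05 for Klf5, -0.03 for Klf6, 0.06 for Klf7, -0.14 for Klf3, -0.26 for Klf9, -0.06 for Klf2 and -0.16 for Klf13. Those of Klf10 and Klf4 changed sign, to 0.07 and 0.03. These are unblocked differences, in which scrambled replicate 3 stayed without its same-numbered array. The same-numbered differences of replicates 1 and 2 were -0.06 and -0.05 for Klf10 and -0.31 and 0.10 for Klf4, so the sign change does not hold for paired arrays.

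The members divided by what their variation over the 9 arrays followed. The group accounted for 96.3% of the sum of squares of Klf6, 92.0% of Klf3, 89.7% of Klf5 and 88.2% of Klf7. These are the members already called against vehicle on the same arrays, so their high shares are no separate support. For Klf4, Klf10 and Klf15 the replicate number accounted for most of it, with 85.6%, 78.8% and 90.4%. Klf15 had not passed the filter, and its arrays of replicate 3 all held the same value. Over all genes tested the median share was 28.3% for the group and 36.2% for the number. Klf4 averaged 8.75 on the arrays of replicate 1, 8.03 on those of replicate 2 and 8.10 on those of replicate 3, and was highest in replicate 1 within each group. Klf10 averaged 8.76, 8.40 and 8.25 on the arrays of replicates 1, 2 and 3, and was also highest in replicate 1 within each group. Klf9 was split between both sources, with 40.5% for the group and 43.2% for the number, and Klf2 and Klf13 kept 52.1% and 42.9% that neither accounted for. With CD24 siRNA replicate 3 left out, the group alone accounted for 87.6% to 96.3% of the sum of squares of Klf3, Klf5, Klf6 and Klf7, and the number alone for 85.7% to 90.4% of that of Klf4, Klf10 and Klf15. What differed between the replicate numbers was not tested.

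**Figure D3:**
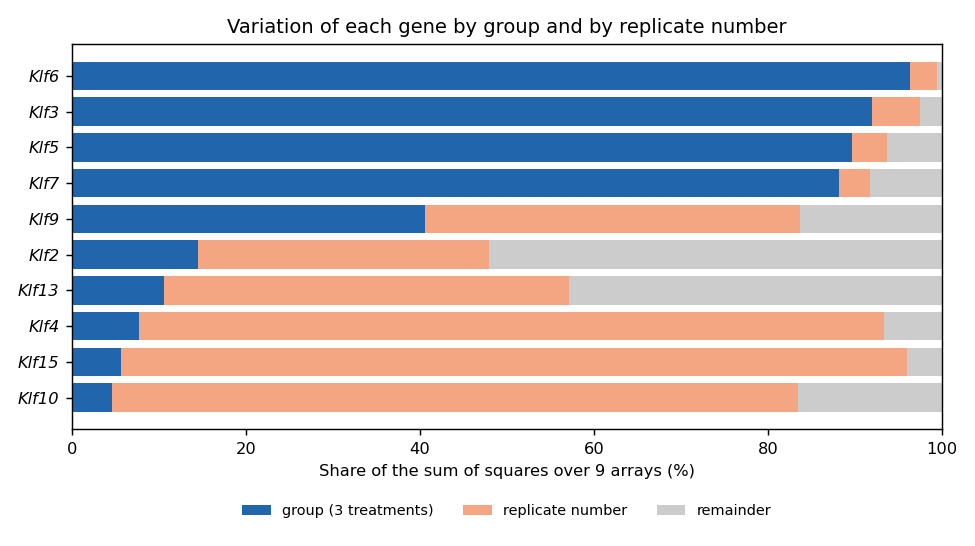
Share of each gene's sum of squares over the 9 arrays, in percent (horizontal axis), by group (blue), replicate number (orange) and the remainder (grey), from a fit of both with no interaction. The group takes 88.2% to 96.3% for Klf3, Klf5, Klf6 and Klf7, which were called on the same arrays. The number takes 78.8% to 90.4% for Klf4, Klf10 and Klf15, of which Klf15 did not pass the filter.

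The genes whose levels over the 9 arrays followed Klf5 most closely, among the 12630 tested, were Vav2 (Pearson r = 0.997), Man2b1 (0.995) and Fstl1 (0.994). For Klf7 they were Snx30 (0.991), Acsf3 (0.988) and Clcn5 (0.987). The arrays share the treatment groups and replicate numbers, and 118 genes had an r over 0.95 with Klf5 and 108 with Klf7, so these names describe likeness of level over 9 arrays and nothing more. Over the 8 arrays without CD24 siRNA replicate 3, the same genes led for each member, with r of 0.995 to 0.997 for Klf5 and 0.988 to 0.993 for Klf7.

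Other genes around the family were read from lists. Of the 7 other Krüppel-like factor genes, Klf1, Klf8, Klf11, Klf12, Klf14, Klf16 and Klf17, 5 were above the filter and none passed in any comparison, with or without the block. The same held for the 5 tested of 9 Sp genes, which encode related GC-box binding factors. Among 14 cofactors and ubiquitin ligases that act with Krüppel-like factors, 1 rose and 1 fell with scrambled siRNA and IBMX/Dex. Of all genes tested 6.94% passed there. Kat2b, which encodes the acetyltransferase PCAF, was at 7.70, 7.70 and 7.26 with scrambled siRNA and IBMX/Dex, against 8.52, 8.70 and 8.36 with vehicle. No array of the groups overlapped, and Kat2b was 1.96-fold lower (log2 difference -0.97 ± 0.17 SE, limma adjusted p = 0.0132), a call that was lost on leaving out scrambled replicate 3 (adjusted p = 0.0503). Ctbp2, a corepressor that Klf3 recruits, was at 8.90, 8.71 and 9.04 with scrambled siRNA and IBMX/Dex, against 8.18, 7.75 and 8.18 with vehicle. It was 1.80-fold higher (0.85 ± 0.14 SE, limma adjusted p = 0.0111), and this call too was lost without that array (adjusted p = 0.0525). With CD24 siRNA and IBMX/Dex, Kat2b was 2.16-fold lower than with vehicle and Ctbp2 1.63-fold higher (limma adjusted p = 0.00800 and 0.0235). The Ctbp2 call was lost without CD24 siRNA replicate 1, 2 or 3 (adjusted p = 0.0674, 0.0727 and 0.0892), and in a fit of only those groups (adjusted p = 0.0505). With the block 2 cofactor genes rose and 3 fell with scrambled siRNA, and 2 and 2 with CD24 siRNA. Of all genes tested 23.3% and 22.4% passed with the block.

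Of 13 tested genes known to act on Krüppel-like factor genes, 1 rose and 1 fell in each comparison with vehicle. Of all genes tested 6.94% passed with scrambled siRNA and 6.65% with CD24 siRNA. Nr3c1, which encodes the glucocorticoid receptor that Dex binds, was 2.27-fold lower with scrambled siRNA and IBMX/Dex (limma adjusted p = 0.00135), and 2.61-fold lower with CD24 siRNA and IBMX/Dex (adjusted p = 0.000538). Crem, a cAMP-inducible CREB relative, was 1.44-fold higher with scrambled siRNA (limma adjusted p = 0.0128, and adjusted p = 0.0623 without scrambled replicate 3). With CD24 siRNA it was 1.43-fold higher (adjusted p = 0.0142, and adjusted p = 0.0561 without the array labelled CD24 siRNA replicate 3). Crem was dim, at 6.97, 7.04 and 7.05 with scrambled siRNA and IBMX/Dex. With vehicle it was at 6.51, 6.43 and 6.53, around the filter level of 6.51, so it passed the filter through the IBMX/Dex arrays. CD24 siRNA replicates 1 and 2 and scrambled replicate 1 held exactly the same Crem value. Mef2a, a factor upstream of Klf2 and Klf4, had groups that narrowly did not overlap, and differed by -0.54 with scrambled siRNA and -0.49 with CD24 siRNA. It passed only in the blocked fit (adjusted p = 0.00465 and 0.00747, against adjusted p = 0.165 and 0.206 without the block). After scrambled siRNA it differed by -0.32 without scrambled replicate 1, and after CD24 siRNA by -0.56 without the array labelled CD24 siRNA replicate 3 (adjusted p = 0.266, and 0.0366 blocked).

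Of 5 tested adipogenic genes reported downstream of the family none passed in the unblocked fit of all 9 arrays. Cebpb, a target of Klf4, was at 11.06, 10.06 and 10.27 with scrambled siRNA and IBMX/Dex, against 10.18, 8.80 and 10.11 with vehicle. Its groups overlapped, and the difference of 0.77 ± 0.41 log2 units (SE) passed only when blocked (limma adjusted p = 0.305 unblocked and 0.0259 blocked). It was 0.32 without vehicle replicate 2 and 0.47 without scrambled replicate 1. Cebpd differed by -0.54 (limma adjusted p = 0.215 unblocked and 0.0117 blocked). After CD24 siRNA Cebpd differed by -0.91 from vehicle, and it passed in 4 of 17 alternative fits, not all of them blocked. With CD24 siRNA 2 of these genes rose and 1 fell when blocked, beside 22.4% of all genes tested. Of 13 tested other genes reported downstream, 2 rose and 1 fell in each comparison with vehicle, and 5 rose and 1 fell with the block. The shares over all genes tested were 6.94% with scrambled siRNA and 6.65% with CD24 siRNA, and 23.3% and 22.4% with the block. Thbd, the thrombomodulin gene that Klf2 activates in endothelium, was at 12.51, 11.99 and 12.45 with scrambled siRNA and IBMX/Dex, against 10.81, 9.39 and 10.25 with vehicle, and rose 4.50-fold (limma adjusted p = 0.00577). With CD24 siRNA it was at 12.12, 11.98 and 12.34 and rose 3.98-fold (limma adjusted p = 0.00814), while Klf2 itself did not pass in either comparison.

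The clock gene Nr1d1 fell 1.69-fold with scrambled siRNA and 1.57-fold with CD24 siRNA (limma adjusted p = 0.00499 and 0.00943). Tsc22d3, a glucocorticoid-induced leucine zipper gene, rose 2.19-fold and 2.10-fold (limma adjusted p = 0.0334 and 0.0401), but 6 of the 9 single arrays ended its call when left out in each of these comparisons, among them CD24 siRNA replicate 3 after CD24 siRNA (adjusted p = 0.133). Kat2b, Nr3c1, Thbd and Nr1d1 also passed after CD24 siRNA without the array labelled replicate 3, with differences of -0.97, -1.36, 1.90 and -0.67. In the comparison of CD24 siRNA with scrambled siRNA no gene of any of these lists passed in limma, with or without the block.

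**Figure D4:**
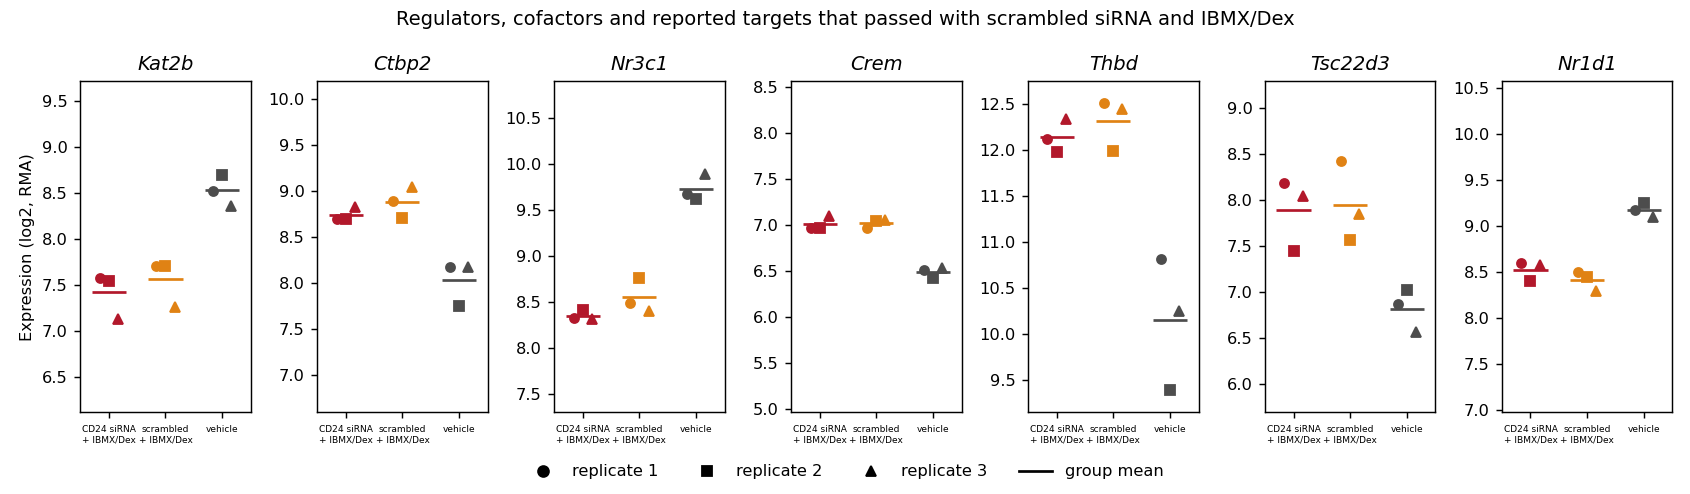
Log2 expression (vertical axes, all spanning the same range) of the 7 cofactor, regulator and reported target genes that passed with scrambled siRNA and IBMX/Dex, with 1 symbol per array by replicate number and a line at the group mean. Kat2b, Nr3c1 and Nr1d1 are lower and Ctbp2, Crem, Thbd and Tsc22d3 higher on all IBMX/Dex arrays than on all vehicle arrays.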

How the data were processed

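The authors deposited 1 table of log2 expression values, 41345 probe sets on 9 single-colour arrays, made with RMA and the oligo package per the submitters' processing notes. Software versions are not given in the sources. RMA equalises the array distributions, so a shift of most transcripts together would be removed, and differences of dim probe sets are compressed.

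Groups and replicate numbers came from the titles. Probe sets with exactly 1 gene symbol in the platform annotation were kept (23521), and the brightest probe set of each of 22180 genes was used. Genes that reached the median of the table, 6.51, on at least 3 arrays were tested (12630). Differences were fitted with limma 3.58.1 in R 4.3.3 (lmFit, eBayes, 1 mean per group, all 9 arrays) and adjusted by Benjamini-Hochberg over all genes tested in a comparison. The threshold was 0.05 and p-values are two-sided. The fits were run on simulated data with normal noise, the unblocked fit without replicate effects and the blocked fit with them. The unblocked fit was thus not tried on simulated arrays that share deviations by replicate number.

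Deviations from the group means were shared by arrays of the same number (r across genes 0.377 to 0.732, against at most 0.116 between different numbers, and for 9 of 9 arrays the best match had the same number). The numbers come from the titles, and the sample descriptions give same-numbered samples a common code, so replicate numbers were treated as pairs, in an alternative fit with a fixed block for each. The other alternatives were leaving out each array, other filters and normalizations, averaging all probe sets of a gene, another variance model and a fit of only the groups compared. Leaving out an array was unblocked unless stated, and its same-numbered arrays stayed in the fit. The 10 Krüppel-like factors and all lists were chosen with earlier results of these data known. Named besides the members and Cd24a were genes of the lists that passed, the 7 other Krüppel-like factor genes, and the 3 genes whose levels correlated best with the member that rose most and with the one that fell most. Cebpb, Cebpd and Mef2a were named after their values were seen.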

Additional observations from a re-analysis of the deposited data

How the results depend on the processing

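Klf5, Klf6 and Klf7 kept their direction and passed in both comparisons with vehicle under every alternative in which they were tested (18 for Klf5 and Klf6, 16 for Klf7, which lay below the filter at the 75th percentile and with the mean of its probe sets). Their limma adjusted p reached at most 0.0345, 0.0121 and 0.0387. Klf3 did so after CD24 siRNA (at most 0.0376) and after scrambled siRNA in 13 of 18 alternatives. The replicate block brought Klf9 past the threshold after scrambled siRNA, also without the array labelled CD24 siRNA replicate 3 (adjusted p = 0.0305), and changed no other call of a member. The count of members passing against vehicle stayed between 3 and 5, and was 0 against scrambled siRNA. Counts over all genes moved more. With scrambled siRNA and IBMX/Dex against vehicle 876 genes passed, and 2942 with the replicate block, 2924 with the block and without the array labelled CD24 siRNA replicate 3, 389 with only the groups compared, and 313 to 852 on leaving out 1 array. After CD24 siRNA the counts were 840, 2831, 1763, 461 and 321 to 857. The causes were not tested. On leaving out 1 array, differences that did not pass ranged after scrambled siRNA from -0.05 to 0.48 for Klf4 and from -0.00 to 0.58 for Klf13, and after CD24 siRNA from -0.01 to 0.43 and from -0.14 to 0.44. Differences of Klf4, Klf10, Klf13 and Klf15 from vehicle, never called, changed sign in 1 to 3 alternatives in each comparison, and that of Klf2 in 1 after scrambled siRNA. Against scrambled siRNA, differences of Klf4, Klf5, Klf6, Klf7, Klf10, Klf13 and Klf15 changed sign in 1 to 5 alternatives, and those of Klf2, Klf3 and Klf9 in none of those run. Alternatives for genes that are no members, and the shares, likeness and overlap without the array labelled CD24 siRNA replicate 3, were added after seeing the data.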
